A study of Mus musculus with 20 samples.

Results

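The last step of reprogramming was examined by comparing RNA sequencing libraries of fully and partially reprogrammed mouse cells, 3 of the 20 libraries of the series. The series asked which long noncoding RNAs act when embryonic stem cells form heart muscle, and these 3 libraries were sequenced with 5 others from stem cells and fibroblasts, as a discovery set of 8. The fully reprogrammed cells were the induced pluripotent line miPS MCV8.1 (1 library). The partially reprogrammed cells were the lines 11.3 (MCV6) and 11.5 (MCV8), with 1 library each, taken as 2 replicates of that state. All 3 lines came from the same Oct4-GFP embryonic fibroblasts of the strain 129/svJae x C57BL/6 and carried retroviruses for Oct4, Sox2, c-myc and Klf4, so the viral factors are shared by both states. Per the labels, lines 11.3 and 11.5 are single subclones. The labels do not say whether MCV8.1 was derived from MCV8. The starting fibroblasts (MEF, Oct4-GFP, same strain, without the viruses, 1 library) and wild type embryonic stem cells (mESC) of the lines v6.5 (strain 129/svJae x C57BL/6) and E14 (strain 129/Ola), with 2 libraries each, gave the levels at the start and at the end point, and most of the spread in the test. None of the cell lines was treated.

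Retroviral Oct4, Sox2, Klf4 and c-Myc can turn fibroblasts into induced pluripotent cells, but many clones stop part of the way. Such partially reprogrammed lines divide without limit and have shut down much of the fibroblast programme, yet depend on the viral factors and have not switched on the cells' own pluripotency network. Full reprogramming is known for activation of that network, silencing of the retroviruses, and removal of repressive DNA methylation from genes of pluripotency and the germline.

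The 3 libraries were sequenced to near equal depth, with 7613843 reads in miPS against 7536503 and 7553667 in lines 11.3 and 11.5, so their reads can be set side by side. Reads below are expected counts rounded to whole numbers, and levels are in TPM, a unit of transcript abundance corrected for transcript length. Of 16773 genes tested with edgeR's quasi-likelihood test, 1657 (9.88%) passed an adjusted p of 0.05, with 1319 higher in miPS (7.86%) and 338 lower (2.02%). Every called gene had a fitted change of at least 2-fold, with a median absolute log2 fold change of 4.52, against a median log2 fold change of 0.03 over all genes tested. In simulated data the test called 0% of true 2-fold changes, so a gene that did not pass may still differ between the states. The spread in this test came from 3 pairs of libraries that differ from each other to unequal degrees. The v6.5 pair stood apart, with a correlation across genes of 0.897 (log2 of CPM + 1, where CPM is a count scaled to library size) and 4664 genes at least 2-fold apart, against 116 for the E14 pair and 1749 between lines 11.3 and 11.5. Without a v6.5 library the test called 3722 genes (replicate 1 left out) or 3706 (replicate 2), and without an E14 library it called 405 or 409. Without line 11.3 it called 682 genes and without line 11.5 681, and 477 genes were called with both lines and with either one left out. DESeq2 called 1713 higher and 847 lower, so that 66.9% of its calls were higher, against 79.6% of those of edgeR. The lone miPS library was assumed to vary like the paired ones, and no label says that paired libraries came from separate cultures, so the p-values speak only of differences among the libraries at hand, which may be technical.

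Of the 1319 genes higher in miPS, 1261 had a TPM in all 4 mESC libraries above that in both partially reprogrammed lines. The miPS level lay within the range of the 4 mESC libraries for 708 of them, above all 4 for 369 and below all 4 for 242. Of the 338 genes lower in miPS, 324 were lower in all 4 mESC libraries than in both lines. These mESC libraries also set the spread of the test, so these counts describe the levels and are no second test. In 303 of the genes higher in miPS both partial lines had 0 reads, and 12 of the lower genes had 0 reads in miPS. For such genes a fold is given as a bound, against a floor of 3 reads per library, since the fitted value depends on the prior of the model. A gene with 0 reads in both partial lines could enter the test only through the other libraries. The filter thus favours a positive median and higher calls in lists that hold such genes.

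**Figure D1:**
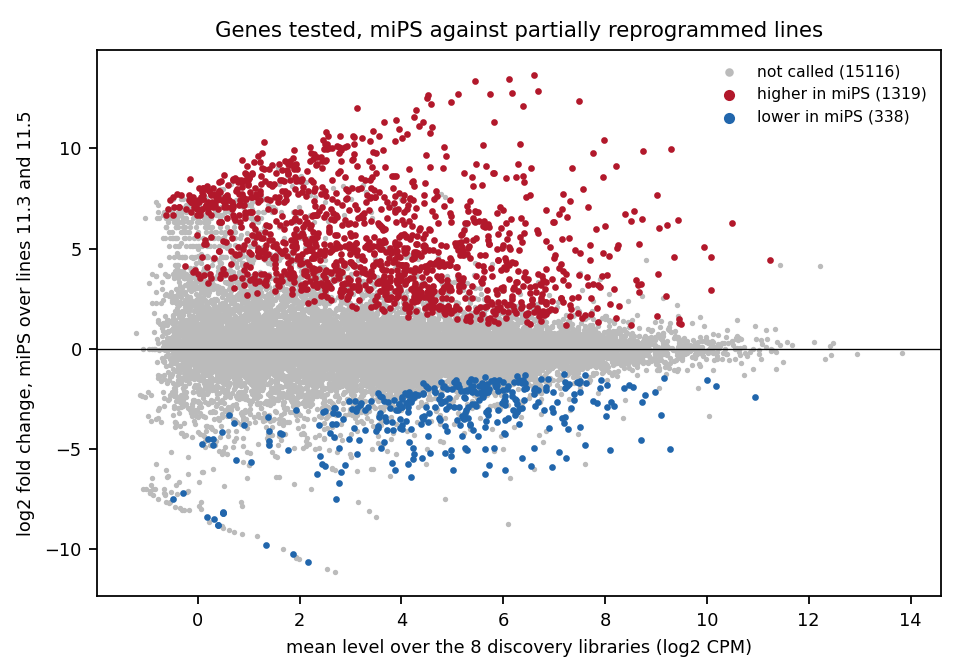
Each point is 1 of the 16773 genes tested, with its mean level over the 8 survey libraries (log2 CPM) on the horizontal axis and its fitted log2 fold change, miPS over lines 11.3 and 11.5, on the vertical axis. The 1319 genes higher in miPS outnumber the 338 lower ones, and the diagonal rows at the top left are genes with no reads in either partial line.

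The growth conditions differed between the groups. Per the labels' growth protocol, miPS and mESC cells were kept on irradiated feeder fibroblasts and pre-plated before harvest to remove them, whereas lines 11.3 and 11.5 grew without feeders, so feeder RNA and the state of reprogramming cannot be told apart by design. All 12 fibroblast markers were detected in miPS, with a summed level of 236 TPM, against 24.3 TPM in line 11.3 (2 markers at 0 reads, Lum and Twist2) and 61.9 TPM in line 11.5 (6 at 0 reads). The starting MEF summed to 15985 TPM and the mESC libraries to between 156 and 275 TPM. Of the 1319 genes higher in miPS, 88 (6.67%) were at least 10 times higher in MEF than in miPS, against 562 of all 16773 genes tested. Of the same 1319 genes, 298 were higher in MEF than in miPS, a count not made over all genes tested.

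Of the 4 reprogramming factors, 2 fell in miPS, Pou5f1 and Myc, against 2.02% of all genes tested. Pou5f1 (Oct4), the central transcription factor of pluripotency, had 1152 TPM in miPS against 6491 and 6911 TPM in lines 11.3 and 11.5 (log2 fold change -2.41 ± 0.33 (SE), adjusted p = 0.0114, edgeR). Myc, a driver of growth and division, had 55 TPM in miPS against 1405 and 2002 TPM in lines 11.3 and 11.5 (log2 fold change -5.01 ± 0.47 (SE), adjusted p = 0.00561, edgeR). Both genes were several-fold higher in each partial line than in miPS. Klf4 had 247 TPM in miPS against 2495 and 2533 TPM in lines 11.3 and 11.5, a wide gap that missed the threshold (adjusted p = 0.0509, edgeR). Sox2 had 358 TPM in miPS against 962 and 166 TPM in lines 11.3 and 11.5, so that miPS lay between the 2 lines. Together the 4 genes took 0.210% of all reads in miPS, against 1.28% in line 11.3 and 1.3% in line 11.5, and between 0.110% and 0.185% in the mESC libraries. The MEF level was 2.04 TPM for Pou5f1 and 112 TPM for Myc. The deposited counts are per gene, so viral and endogenous transcripts of these 4 genes cannot be told apart. With 1 library removed, this list had 1 (without either E14 library) to 3 (without either v6.5 library) lower. In each fit without 1 replicated library, Myc stayed past the threshold. Adjusted p-values of the rest ranged up to 0.0632 for Pou5f1 without E14 replicate 1.

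Naive pluripotency genes, the network that keeps the ground state of mouse stem cells, were the list with the highest share called. Of the 22 genes tested, 17 rose in miPS, against 7.86% of all genes tested, with a median log2 fold change of 6.52 as fitted and 5.35 with genes at 0 reads set to their bound. Nanog, a homeodomain factor that stabilises the network, had 2462 reads in miPS against 2 and 7 in lines 11.3 and 11.5 (log2 fold change 9.00 ± 0.53 (SE), adjusted p = 0.00222, edgeR). Zfp42 (Rex1), a zinc finger marker of the naive state, had 3648 reads in miPS against 12 and 6 in lines 11.3 and 11.5. Neither partial line had more than 12 reads of these genes, and miPS stood at 339 TPM of Nanog and 379.5 TPM of Zfp42.

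The RefSeq promoter of Nanog, 250 bases before to 50 after the start (chr6:122707239-122707538, plus strand, GRCm38.p6), is shown because it holds the joint binding element of Oct4 and Sox2, factors delivered by the retroviruses. The element is in capitals.
Nanog: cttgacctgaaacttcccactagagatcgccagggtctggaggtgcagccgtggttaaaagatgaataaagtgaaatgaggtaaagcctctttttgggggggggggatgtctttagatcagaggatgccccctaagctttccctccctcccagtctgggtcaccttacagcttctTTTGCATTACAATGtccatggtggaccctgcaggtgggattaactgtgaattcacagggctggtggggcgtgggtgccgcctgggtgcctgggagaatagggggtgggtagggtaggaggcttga
The search, on both strands, was for CATTGT, any base and then ATGCAAA, and 1 of the 27025 listed promoters of 300 bases held it. The octamer portion alone, ATGCAAA, occurs in 4.6% of them. A match describes the letters and not the binding of a factor. Lines 11.3 and 11.5 had 6491 and 6911 TPM of Pou5f1, 962 and 166 TPM of Sox2, and 0.951 and 1.67 TPM of Nanog. In miPS the levels were 1152 TPM of Pou5f1, 358 TPM of Sox2 and 339 TPM of Nanog. Sox2 was thus below miPS in line 11.5. The part of this element in these levels was not tested.

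Several further transcription factors of the naive network had few or no reads in the partial lines. Esrrb, a nuclear receptor that can stand in for Nanog, had 3311 reads in miPS, against 1 and 0 in lines 11.3 and 11.5, a ratio of 6562-fold (95% exact counting interval 1177 to 259270). Tbx3, a T-box factor, had 1551 reads in miPS against 0 and 1 in lines 11.3 and 11.5, and Prdm14, which restrains DNA methylation, had 136 reads in miPS against 0 and 0 in lines 11.3 and 11.5, at least 44.9-fold higher in miPS. Klf2 and Klf5, Krüppel-like factors that act beside Klf4, had 2461 reads in miPS against 23 and 14 in lines 11.3 and 11.5 for Klf2, and 1842 reads in miPS against 248 and 64 in lines 11.3 and 11.5 for Klf5. Klf5 was thus clearly present in line 11.3 while Klf2 was low in both lines. Tfcp2l1, a target of LIF signalling, had 791 reads in miPS against 16 and 6 in lines 11.3 and 11.5. Tcl1, an activator of Akt, had 526 reads in miPS against 0 and 0 in lines 11.3 and 11.5, at least 174-fold higher in miPS. Across the 6 fits without 1 library, Nanog, Zfp42, Esrrb, Tbx3, Prdm14, Klf2, Tfcp2l1 and Tcl1 stayed past the threshold. For the others, adjusted p-values ranged up to 0.108 for Klf5 without E14 replicate 1.

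Some naive genes were already on in the partial lines. Fbxo15, an Oct4 target once used to select reprogrammed cells, had 87.6 TPM in miPS against 53.5 and 93.2 TPM in lines 11.3 and 11.5, and the miPS value lay between the 2 lines. Fgf4, a secreted growth factor controlled by Oct4 and Sox2, rose in miPS but was well above the floor in both lines, with 137 TPM in miPS against 35.1 and 32.8 TPM in lines 11.3 and 11.5 (log2 fold change 2.00 ± 0.39 (SE)). Nr0b1 (Dax1), Nr5a2 and Sall4 were expressed in both lines and did not pass. Nr0b1 had 149.7 TPM in miPS against 85.7 and 27 TPM in lines 11.3 and 11.5, Nr5a2 had 28.3 TPM in miPS against 26.3 and 7.52 TPM in lines 11.3 and 11.5, and Sall4 had 194 TPM in miPS against 46.1 and 12.1 TPM in lines 11.3 and 11.5. Each of these 3 genes was higher in line 11.3 than in line 11.5. The remaining gene that did not pass was Rex2, at 19 reads in miPS, against 0 and 0 in lines 11.3 and 11.5. With 1 library left out in turn, the number of naive genes higher in miPS ran from 11 (without line 11.5) to 18 (without either v6.5 library). When 1 replicated library was dropped, adjusted p-values ranged up to 0.117 for Fgf4 without line 11.5.

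Genes known to be activated late in reprogramming rose in 12 of 20 cases, against 7.86% of all genes tested (median log2 fold change 3.32). Lin28a, an RNA-binding protein that blocks let-7 microRNA maturation, had 1164 reads in miPS against 0 and 0 in lines 11.3 and 11.5, at least 384-fold higher in miPS, and the highest fitted fold change of all named genes. Utf1, a chromatin factor of undifferentiated cells, had 4218 reads in miPS against 1 and 8 in lines 11.3 and 11.5 (log2 fold change 9.78 ± 1.03 (SE), adjusted p = 0.00644, edgeR). Dppa5a, an RNA-binding protein of pluripotent cells, reached 2528 TPM in miPS against 4.29 and 1.01 TPM in lines 11.3 and 11.5. Its miPS level was the highest of the list. Of the developmental pluripotency genes, Dppa2 had 402 reads in miPS against 14 and 2 in lines 11.3 and 11.5, Dppa3 had 89 reads in miPS against 1 and 0 in lines 11.3 and 11.5, and Dppa4 had 728 reads in miPS against 2 and 1 in lines 11.3 and 11.5. Dppa3 (Stella), which protects maternal methylation marks, was lower in miPS, at 19.4 TPM, than in any mESC library (47.8 to 99.8 TPM). L1td1, an RNA-binding protein derived from a transposon, did not separate the groups, with 219.8 TPM in miPS against 201 and 221 TPM in lines 11.3 and 11.5. Lin28b had 87 reads in miPS against 7 and 50 in lines 11.3 and 11.5 and did not pass. With 1 library left out in turn, the higher genes of this list numbered 8 (without either E14 library) to 14 (without either v6.5 library). Over the leave-one-out fits, Lin28a, Utf1, Dppa5a, Dppa3 and Dppa4 stayed past the threshold. The other adjusted p-values ranged up to 0.0526 for Dppa2 without E14 replicate 1.

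**Figure D2:**
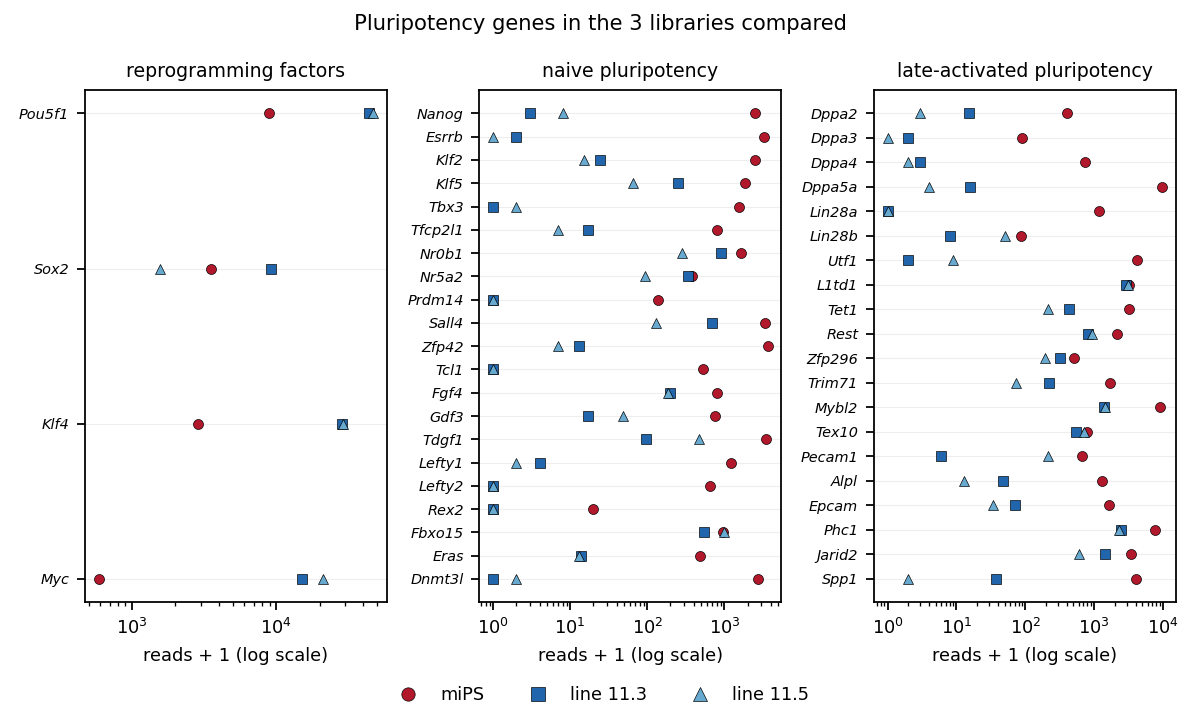
Reads plus 1 (log scale) of the reprogramming factors and of naive and late-activated genes in the miPS library (circles) and in lines 11.3 (squares) and 11.5 (triangles). In miPS, Pou5f1, Myc and Klf4 were below both lines and Sox2 lay between them, while most genes of the other panels were higher in miPS and L1td1 and Fbxo15 overlapped.

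Of the Mir290 cluster, the main microRNA cluster of mouse embryonic stem cells, 1 entry was high enough to test, Mir294, and it was chosen after its values were seen. It had 227 reads in miPS against 0 and 0 in lines 11.3 and 11.5, at least 75-fold higher in miPS (adjusted p = 0.00501, edgeR), while the entries of Mir290, Mir291a, Mir291b, Mir292, Mir293 and Mir295 each had at most 4 reads in miPS and 0 in both lines. The libraries were size-selected from fragmented mRNA, so mature microRNAs were not measured. Below are the mature forms of 3 microRNAs of the cluster from RefSeq (chromosome 7 in GRCm38.p6), shown because they share a seed (bases 2 to 8, in capitals), the stretch that pairs with targets.
mmu-miR-291a-3p: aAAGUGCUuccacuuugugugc
mmu-miR-294-3p: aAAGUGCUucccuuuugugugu
mmu-miR-295-3p: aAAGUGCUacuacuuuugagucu
As a contrast, the host gene Mir17hg of the Mir17 cluster had 124 reads in miPS against 56 and 81 in lines 11.3 and 11.5 and was not called. With any 1 of the 6 replicated libraries left out, Mir294 stayed past the threshold.

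Genes of the formative epiblast, the stage that follows the naive state, rose in 9 of 15 cases, against 7.86% of all genes tested. The median log2 fold change was 5.15 as fitted and 3.45 with genes at 0 reads set to their bound. Nodal, a TGF-beta family ligand, had 441 reads in miPS against 1 and 1 in lines 11.3 and 11.5, and its inhibitors and targets Lefty1 and Lefty2 had 1217 reads in miPS against 3 and 1 in lines 11.3 and 11.5 for Lefty1, and 659 reads in miPS against 0 and 0 in lines 11.3 and 11.5 for Lefty2. The ligand and both inhibitors were thus present in miPS and near 0 in the partial lines. Reads of Lefty1 and Lefty2, which are close paralogs, may be split by the authors' counting. Otx2, a homeodomain factor of the epiblast, had 134 reads in miPS against 4 and 3 in lines 11.3 and 11.5, Foxd3 153 reads in miPS, against 1 and 0 in lines 11.3 and 11.5, and Pou3f1 77 reads in miPS, against 3 and 2 in lines 11.3 and 11.5. Levels of these 3 were low in miPS too, at 18, 13.1 and 3.75 TPM. Zic2 did not separate the groups, with 35.2 TPM in miPS against 38.9 and 23 TPM in lines 11.3 and 11.5. Fgf5, the epiblast growth factor, and T (Brachyury), a factor of the primitive streak, had 4 and 5 reads in miPS, against 0 in both lines for each, and were not called. The count of higher genes ran from 5 (without either line) to 11 (without v6.5 replicate 1) with 1 library left out. In each fit without 1 replicated library, Nodal and Foxd3 stayed past the threshold. For the others, adjusted p-values ranged up to 0.0695 for Lefty1, 0.068 for Lefty2, 0.0874 for Otx2 and 0.0835 for Pou3f1 without line 11.5.

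Genes that set or remove DNA methylation ranged in the partial lines from near 0 reads, through reduced levels, to levels above those of miPS. Dnmt3l, the cofactor of the de novo methyltransferases, had 2724 reads in miPS, against 0 and 1 in lines 11.3 and 11.5, a ratio of 5399-fold (95% exact counting interval 968 to 213320). Its partners Dnmt3b and Dnmt3a had 126 TPM in miPS against 3.29 and 7.05 TPM in lines 11.3 and 11.5 for Dnmt3b, and 73.1 TPM in miPS against 19.3 and 24.9 TPM in lines 11.3 and 11.5 for Dnmt3a, and both were called. Tet1, which oxidises methylated cytosine, had 105 TPM in miPS against 15.9 and 8.25 TPM in lines 11.3 and 11.5, whereas its relative Tet3 fell in miPS, with 4.06 TPM in miPS against 15.5 and 19.2 TPM in lines 11.3 and 11.5 (log2 fold change -2.31 ± 0.46 (SE)). Dnmt1 and Uhrf1, which copy methylation at replication, had 129 TPM in miPS against 204 and 192 TPM in lines 11.3 and 11.5 for Dnmt1, and 305 TPM in miPS against 378 and 359 TPM in lines 11.3 and 11.5 for Uhrf1, and neither passed. In all, 4 of 13 genes of this list rose and 1 fell, against 7.86% and 2.02% of all genes tested (median log2 fold change 0.03). In the leave-one-out fits, this list had 2 (without line 11.5 or either E14 library) to 4 (without either v6.5 library) higher and 0 (without either line or either E14 library) to 2 (without either v6.5 library) lower. Across the 6 fits without 1 library, Dnmt3l and Dnmt3b stayed past the threshold. Otherwise adjusted p-values ranged up to 0.118 for Dnmt3a without line 11.3, 0.0828 for Tet1 without line 11.5 and 0.113 for Tet3 without E14 replicate 1.

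Germline genes whose promoters are known to be silenced by methylation in somatic cells rose in 7 of 17 tested cases, against 7.86% of all genes tested. A further 4 members were too low to test. Their median log2 fold change was 8.30 as fitted and 3.53 with genes at 0 reads set to their bound. Members with 0 reads in both lines were tested only because other libraries held them, so the filter favours a positive median here. Dazl and Ddx4, RNA-binding proteins of germ cells, had 30 reads in miPS against 0 and 0 in lines 11.3 and 11.5 for Dazl (at least 9.91-fold), and 78 reads in miPS against 0 and 0 in lines 11.3 and 11.5 for Ddx4 (at least 25.8-fold). Mael and Piwil2, of the piRNA pathway, had 86 reads in miPS against 0 and 0 in lines 11.3 and 11.5 for Mael, and 247 reads in miPS against 3 and 2 in lines 11.3 and 11.5 for Piwil2. Both partial lines were thus at or near 0 for all 4 genes. The strongest of the list were Tuba3a, a testis tubulin with a near-identical copy that makes its count uncertain, with 603 reads in miPS against 0 and 0 in lines 11.3 and 11.5, and the ribosomal protein retrogene Rpl10l, with 585 reads in miPS against 0 and 0 in lines 11.3 and 11.5. Hormad2 was also called at 37 reads in miPS, against 0 and 0 in lines 11.3 and 11.5. Tex19.1 was already on in line 11.5, with 948 reads in miPS against 8 and 134 in lines 11.3 and 11.5, and did not pass. Leaving out 1 library gave a number of higher germline genes from 4 (without line 11.3 or either E14 library) to 14 (without either v6.5 library). When 1 replicated library was dropped, Mael, Piwil2, Tuba3a and Rpl10l stayed past the threshold. The other adjusted p-values ranged up to 0.0805 for Dazl without E14 replicate 1 and 0.0928 for Ddx4 and 0.126 for Hormad2 without line 11.5.

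The Dazl promoter (chr17:50293571-50293870, minus strand, GRCm38.p6, RefSeq) is shown because Dazl is a standard example of a germline promoter that methylation keeps shut. Its CG steps, the sites that can be methylated, are in capitals.
Dazl: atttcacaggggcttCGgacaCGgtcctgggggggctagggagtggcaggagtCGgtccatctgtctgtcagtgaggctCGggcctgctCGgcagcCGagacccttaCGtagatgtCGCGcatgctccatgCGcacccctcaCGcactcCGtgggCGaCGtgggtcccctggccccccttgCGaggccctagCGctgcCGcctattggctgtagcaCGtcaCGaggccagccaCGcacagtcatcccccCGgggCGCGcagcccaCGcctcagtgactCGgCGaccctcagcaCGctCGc
It holds 28 CG steps in 300 bases, against 4 in the Nanog promoter. The median was 20 over the listed promoters of genes tested and 16 over those of genes called higher. DNA methylation itself was not measured in these libraries.

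Cleavage-stage genes, which flicker on in rare stem cells and lengthen telomeres, rose in 7 of 13 cases, against 7.86% of all genes tested. The median log2 fold change was 6.82 as fitted and 3.16 with genes at 0 reads set to their bound. As for the germline list, the filter favours a positive median. Zscan4b, Zscan4c, Zscan4d and Zscan4f, near-identical zinc finger genes whose single counts are uncertain, summed to 234 reads in miPS against 0 and 0 in lines 11.3 and 11.5. The same sum was 1076 and 1646 reads in the E14 libraries but 2.48 and 4.22 in the v6.5 libraries, so mESC lines differ in it as well. Tcstv3 had 51 reads in miPS against 0 and 0 in lines 11.3 and 11.5. The telomerase genes Tert and Dkc1 had 13.9 TPM in miPS against 8.14 and 6.99 TPM in lines 11.3 and 11.5 for Tert, and 143 TPM in miPS against 159 and 169 TPM in lines 11.3 and 11.5 for Dkc1, and neither passed. The higher genes of this kind numbered, with 1 library left out, 2 (without either E14 library) to 10 (without either v6.5 library). Over the leave-one-out fits, Zscan4c and Zscan4f stayed past the threshold. Adjusted p-values of the rest ranged up to 0.0858 for Zscan4b and 0.0741 for Zscan4d without E14 replicate 2 and 0.0664 for Tcstv3 without E14 replicate 1.

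Epithelial genes, which reprogramming fibroblasts acquire as they leave the mesenchymal state, rose in 15 of 26 cases and fell in 1 (median log2 fold change 3.51). The shares over all genes tested were 7.86% and 2.02%. Cdh1, E-cadherin, had 164 TPM in miPS against 1.25 and 2.92 TPM in lines 11.3 and 11.5 (log2 fold change 6.37 ± 0.52 (SE), adjusted p = 0.0041, edgeR). Epcam, an adhesion molecule, had 155 TPM in miPS against 6.83 and 3.37 TPM in lines 11.3 and 11.5. Of the tight junction proteins, Cldn4 had 697 reads in miPS against 2 and 2 in lines 11.3 and 11.5, Cldn6 had 273 reads in miPS against 1 and 0 in lines 11.3 and 11.5, and Cldn7 had 161 reads in miPS against 2 and 0 in lines 11.3 and 11.5. Grhl2, a factor that drives epithelial genes, had 119 reads in miPS against 0 and 0 in lines 11.3 and 11.5, and the keratin Krt18 108 reads in miPS, against 0 and 0 in lines 11.3 and 11.5. Junction proteins, their regulator and a keratin were thus all near 0 in the partial lines. Outside the list, Cdh3, P-cadherin, had 622 reads in miPS against 0 and 0 in lines 11.3 and 11.5, with 949 in MEF. Dsp, desmoplakin, went the other way, with 5.71 TPM in miPS against 26.6 and 20.1 TPM in lines 11.3 and 11.5 (log2 fold change -2.06 ± 0.37 (SE)). Ocln and Krt19 differed between the lines, with 3.13 TPM in miPS against 22.5 and 4.39 TPM in lines 11.3 and 11.5 for Ocln, and 8 TPM in miPS against 3.62 and 29.8 TPM in lines 11.3 and 11.5 for Krt19, and did not pass. For the epithelial list the leave-one-out counts of higher genes ran from 10 (without either E14 library) to 19 (without either v6.5 library). With any 1 of the 6 replicated libraries left out, Cdh1, Epcam, Cldn6, Cldn7, Grhl2, Krt18 and Cdh3 stayed past the threshold. For the others, adjusted p-values ranged up to 0.0568 for Cldn4 without line 11.3 and 0.1 for Dsp without E14 replicate 1.

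Regulators of the mesenchymal state gave a mixed picture, with 3 of 18 higher and 2 lower in miPS (median log2 fold change -0.56). All genes tested gave 7.86% higher and 2.02% lower. Tgfbr2, the type II TGF-beta receptor, kept a level in the partial lines near that of fibroblasts (55.4 TPM in MEF), with 4.57 TPM in miPS against 44.5 and 46.8 TPM in lines 11.3 and 11.5 (log2 fold change -3.39 ± 0.48 (SE), adjusted p = 0.0127, edgeR). Foxc1, a forkhead factor of mesenchyme, had 1.04 TPM in miPS against 7.92 and 8.98 TPM in lines 11.3 and 11.5 and also fell. Snai1, Zeb1 and Twist1, repressors of epithelial genes, did not pass. Snai1 had 5.41 TPM in miPS against 16.4 and 15.9 TPM in lines 11.3 and 11.5, Zeb1 had 5.16 TPM in miPS against 15.9 and 14.9 TPM in lines 11.3 and 11.5, and Twist1 had 4.46 TPM in miPS against 8.12 and 22.9 TPM in lines 11.3 and 11.5. Each of these 3 was lower in miPS than in both lines. Among the higher members were Cdh11 and Itgb3, and both were at least 10 times higher in MEF than in miPS. Without 1 of the replicated libraries, this list had 1 (without either line or either E14 library) to 4 (without either v6.5 library) higher and 0 (without either E14 library) to 4 (without either v6.5 library) lower. In each fit without 1 replicated library, adjusted p-values ranged up to 0.0536 for Tgfbr2 without E14 replicate 2, 0.101 for Foxc1 and 0.0846 for Itgb3 without E14 replicate 1 and 0.0772 for Cdh11 without line 11.5.

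Surface proteins used to stage reprogramming separated the states in both directions. Cd44, the hyaluronan receptor lost late in reprogramming, had 22.4 TPM in miPS against 316 and 269.6 TPM in lines 11.3 and 11.5 (log2 fold change -3.74 ± 0.42 (SE), adjusted p = 0.0075, edgeR). Icam1, an adhesion molecule gained late, had 64.1 TPM in miPS against 1.09 and 1.65 TPM in lines 11.3 and 11.5 (log2 fold change 5.44 ± 0.45 (SE), adjusted p = 0.00411, edgeR). Cd44 high with Icam1 low was thus the pattern of both partial lines, and also of MEF (283 TPM of Cd44 and 3.66 TPM of Icam1). Ly6a (Sca1) had 28.8 TPM in miPS against 1597 and 841 TPM in lines 11.3 and 11.5 and Cd24a 63.5 TPM in miPS against 709 and 515 TPM in lines 11.3 and 11.5, and both fell. Alpl, the alkaline phosphatase stained in stem cell colonies, had 100.1 TPM in miPS against 5.74 and 2.14 TPM in lines 11.3 and 11.5, and Kit, the stem cell factor receptor, had 29.6 TPM in miPS against 3.93 and 1.39 TPM in lines 11.3 and 11.5. Thy1, a fibroblast antigen lost early, was near 0 in both lines and higher in miPS, with 52.1 TPM in miPS against 1.43 and 0.832 TPM in lines 11.3 and 11.5, beside 1006 TPM in MEF. Pecam1 differed between the lines, with 41.4 TPM in miPS against 0.86 and 15.5 TPM in lines 11.3 and 11.5, and did not pass. The list had a median log2 fold change of 2.56. Of the 13 surface genes, 6 rose and 3 fell, against 7.86% and 2.02% of all genes tested. Leaving out 1 library, the surface list had 1 (without either line or either E14 library) to 3 (without either v6.5 library) lower. Across the 6 fits without 1 library, Cd44, Icam1, Alpl and Thy1 stayed past the threshold. The other adjusted p-values ranged up to 0.0938 for Ly6a and 0.0893 for Cd24a without line 11.3 and 0.0736 for Kit without E14 replicate 1.

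Many genes of fibroblasts and their matrix were higher in the fully reprogrammed line, whereas their summed level was not. Of 34 tested, 18 rose in miPS and 1 fell, against 7.86% and 2.02% of all genes tested (median log2 fold change 3.70). Over the 34 genes, the median level was 3.88% of MEF in miPS, against 0.491% in line 11.3 and 0.312% in line 11.5, and between 2.95% and 4.36% in the mESC libraries. The summed level of the 34 genes ran the other way, at 1987 TPM in miPS (3.93% of MEF), against 3181 TPM in line 11.3 (6.30%) and 2313 TPM in line 11.5 (4.58%). Vim and Fstl1, described below, were the most abundant members in line 11.3. Of the 18 higher genes, 16 were at least 10 times higher in MEF than in miPS, and all 18 were higher in MEF. Tnc, the matrix protein tenascin C, had 46 TPM in miPS against 1.05 and 0.691 TPM in lines 11.3 and 11.5 beside 1799 TPM in MEF, and Col6a1, a collagen VI chain, 33.9 TPM in miPS against 3.44 and 2.77 TPM in lines 11.3 and 11.5 beside 539 TPM in MEF. Both genes were in miPS at a few percent of their fibroblast level. The feeder cells named in the growth protocol were used for miPS and mESC cultures and not for the partial lines, and their part in these values was not tested. In such bulk libraries, fewer fibroblasts and less RNA in each cannot be told apart. Fstl1, a secreted glycoprotein, was the member that fell, with 68.1 TPM in miPS against 608 and 334 TPM in lines 11.3 and 11.5 beside 892 TPM in MEF. Vim (vimentin) and S100a4 were also lower in miPS than in both lines, with 572 TPM in miPS against 1872 and 1041 TPM in lines 11.3 and 11.5 for Vim and 60.9 TPM in miPS against 183 and 423 TPM in lines 11.3 and 11.5 for S100a4, and did not pass. The partial lines differed for Fbln2, with 97.8 TPM in miPS against 103 and 16.7 TPM in lines 11.3 and 11.5, and for Col5a2, with 12.6 TPM in miPS against 35.9 and 7.69 TPM in lines 11.3 and 11.5. The count of higher genes ran from 12 (without either E14 library) to 21 (without either v6.5 library). When 1 replicated library was dropped, Tnc stayed past the threshold. Adjusted p-values of the rest ranged up to 0.0676 for Col6a1 without line 11.5 and 0.0802 for Fstl1 without E14 replicate 1.

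**Figure D3:**
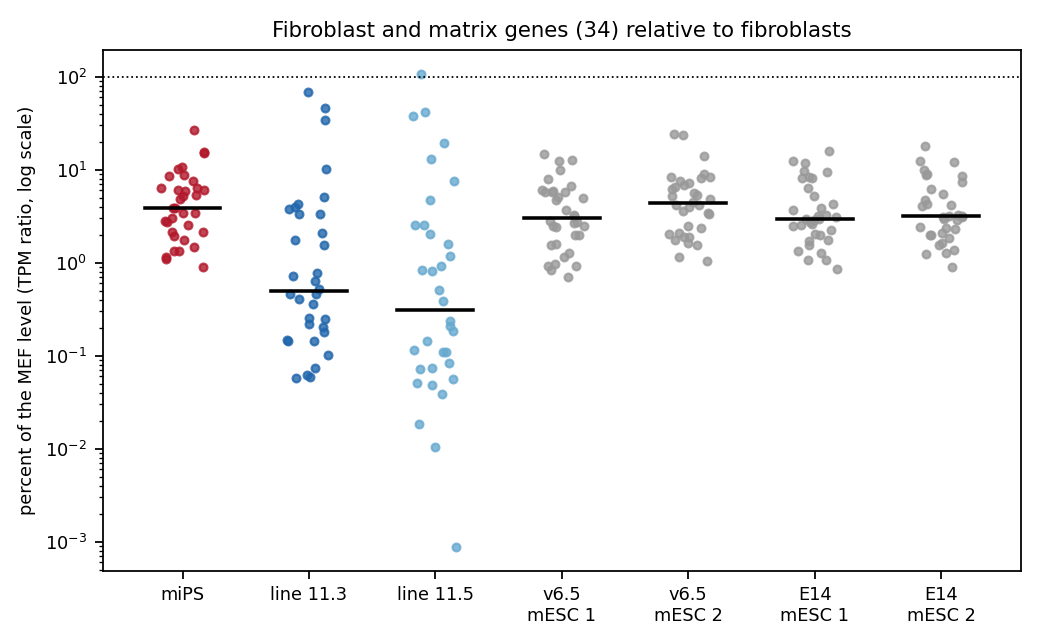
Each point is 1 of 34 fibroblast and matrix genes, as the percentage of its MEF level (ratio of TPM, log scale), and bars are medians. The miPS median of 3.88% lies in the range of the 4 mESC libraries (2.95% to 4.36%), and the medians of both partial lines lie lower (0.491% and 0.312%), although Vim, S100a4 and Fstl1 lie above miPS in both.

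Other lists also held members that are high in fibroblasts. Among smooth muscle genes and targets of serum response factor, 4 of 18 rose, against 7.86% of all genes tested. All of these 4 were at least 10 times higher in MEF than in miPS. Tagln (transgelin) had 42.2 TPM in miPS against 5.19 and 1.36 TPM in lines 11.3 and 11.5 beside 4082 TPM in MEF. Of the immediate early genes, 7 of 16 rose and 1, Myc, fell, against 7.86% and 2.02% of all genes tested. Fosb, an AP-1 subunit, had 51.3 TPM in miPS against 2.74 and 2.54 TPM in lines 11.3 and 11.5, and its relative Fos 84.5 TPM in miPS against 9.79 and 10.0 TPM in lines 11.3 and 11.5. Egr1 had 154 TPM in miPS against 20.2 and 4.17 TPM in lines 11.3 and 11.5, beside 275 TPM in MEF. In 5 of the 7 higher immediate early genes the MEF level was above that of miPS. With 1 library removed, the smooth muscle list had 1 (without either E14 library) to 5 (without either v6.5 library) higher and 0 (without line 11.5 or either v6.5 library or either E14 library) to 2 (without line 11.3) lower and the immediate early list had 2 (without either E14 library) to 7 (without either v6.5 library) higher and 1 (without either line or either E14 library) to 2 (without either v6.5 library) lower. Over the leave-one-out fits, Fosb stayed past the threshold. For the others, adjusted p-values ranged up to 0.0798 for Tagln and 0.0982 for Egr1 without E14 replicate 1 and 0.108 for Fos without line 11.3.

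Imprinted genes, expressed from 1 parental allele, rose in 9 of 28 cases and fell in 2 (median log2 fold change 2.13). The shares over all genes tested were 7.86% higher and 2.02% lower. The noncoding RNAs of the Dlk1-Dio3 region, whose silencing marks induced pluripotent lines of low developmental potential, were on in miPS. Meg3 had 236 TPM in miPS against 2.3 and 4.54 TPM in lines 11.3 and 11.5 (log2 fold change 6.47 ± 0.56 (SE), adjusted p = 0.00461, edgeR), beside 121 to 451 TPM in the mESC libraries and 1301 TPM in MEF. Rian and Mirg of the same region had 1197 reads in miPS against 13 and 80 in lines 11.3 and 11.5 for Rian, and 114 reads in miPS against 0 and 1 in lines 11.3 and 11.5 for Mirg. By TPM the difference of Rian was much smaller, with 109 TPM in miPS against 51 and 55.7 TPM in lines 11.3 and 11.5. H19 and Igf2, reciprocally imprinted neighbours, had 852 reads in miPS against 1 and 0 in lines 11.3 and 11.5 for H19, and 373 reads in miPS against 1 and 5 in lines 11.3 and 11.5 for Igf2. All 5 genes had fewer reads in both partial lines than in miPS. Of the 9 higher genes, 7 were also higher in MEF than in miPS and 2 at least 10 times so. Peg10, a gene derived from a retrotransposon, had 2253 reads in miPS against 4 and 22 in lines 11.3 and 11.5, with a MEF level (24 TPM) below that of miPS (124 TPM). Mest differed between the lines, with 1126 reads in miPS against 0 and 91 in lines 11.3 and 11.5, and did not pass. Grb10, an adaptor that restrains insulin signalling, fell with Gnas, at 43.1 TPM in miPS against 176 and 321 TPM in lines 11.3 and 11.5. The count of higher genes ran from 5 (without line 11.3 or either E14 library) to 11 (without either v6.5 library). With any 1 of the 6 replicated libraries left out, Meg3, Mirg, H19 and Igf2 stayed past the threshold. Otherwise adjusted p-values ranged up to 0.0627 for Rian, 0.0739 for Grb10 and 0.156 for Gnas without E14 replicate 1 and 0.0648 for Peg10 without line 11.3.

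Xist, the noncoding RNA that coats the inactive X chromosome, and Tsix, which overlaps it on the other strand, were both called higher. They were 2 of 7 tested genes of X inactivation and the Y chromosome. Over all genes tested, 7.86% were called higher and 2.02% lower. Xist had 212 reads in miPS against 5 and 5 in lines 11.3 and 11.5. Tsix had 113 reads in miPS against 0 and 2 in lines 11.3 and 11.5. The labels do not say whether counting used the strand, so reads of this pair cannot be assigned with certainty. Both levels were low, at 4.33 TPM of Xist in miPS. In the leave-one-out fits, the list of X inactivation and Y-linked genes had 1 (without either line or either E14 library) to 2 (without either v6.5 library) higher and 0 (without either line or either E14 library) to 2 (without v6.5 replicate 1) lower. In each fit without 1 replicated library, adjusted p-values ranged up to 0.0841 for Xist without line 11.5 and 0.0592 for Tsix without E14 replicate 2.

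The 15 genes with the largest fall in miPS were a varied group, and each was also lower in MEF than in both partial lines. Their MEF levels ran from 0.217 TPM (Serpina1e) to 31.4 TPM (Ly6a). Of all 338 lower genes, 66 were at least 10 times higher in both partial lines than in MEF, 89 were higher in MEF than in both lines, and 183 lay between. The transmembrane protein Shisa3, of a family that holds back Wnt and FGF receptors, had 31 reads in miPS against 1882 and 2087 in lines 11.3 and 11.5, and 1 in MEF (log2 fold change -6.07 ± 0.51 (SE), adjusted p = 0.00427, edgeR). Ano1, a calcium-activated chloride channel, had 66 reads in miPS against 4874 and 2598 in lines 11.3 and 11.5, and St8sia2, an enzyme that makes polysialic acid, 6 reads in miPS, against 548 and 452 in lines 11.3 and 11.5. Ly6c1, a surface protein of the Ly6 family, had 21 reads in miPS against 1255 and 1803 in lines 11.3 and 11.5. Its relative Ly6a fell as well, as given above, and both were low in MEF. Scg5, a chaperone of secretory granules, had 1 read in miPS, against 119 and 262 in lines 11.3 and 11.5, a ratio of 192-fold (95% exact counting interval 34.3 to 7613) of the lines over miPS. The homeodomain factors Tlx2 and Vax2 had 2 reads in miPS against 270 and 149 in lines 11.3 and 11.5 for Tlx2, and 10 reads in miPS against 369 and 676 in lines 11.3 and 11.5 for Vax2. The other genes of the 15 with the largest fall were Otop1, a proton channel, Aim1, Serpina1e, Fam174b, S100a3, St3gal6 and Smarca2. Their fitted log2 fold changes lay between -6.05 (Otop1) and -5.45 (St3gal6), and Serpina1e, a member of a family of near-identical protease inhibitor genes, is uncertain. Across the 6 fits without 1 library, Shisa3, Ano1, St8sia2, Fam174b and S100a3 stayed past the threshold. Adjusted p-values of the rest ranged up to 0.0622 for Ly6c1 and 0.0712 for Vax2 without line 11.5, 0.066 for Scg5 and 0.066 for Otop1 without E14 replicate 1, 0.0852 for Tlx2 and 0.107 for Serpina1e without line 11.3 and 0.0717 for Aim1 and 0.0675 for St3gal6 without E14 replicate 2.

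Smarca2 (Brm), an ATPase of the BAF chromatin remodelling complex that is replaced by Smarca4 (Brg1) in stem cells, was among them. It had 56 reads in miPS against 2870 and 1770 in lines 11.3 and 11.5 (log2 fold change -5.45 ± 0.75 (SE), adjusted p = 0.0118, edgeR). By TPM the difference was smaller, with 6.17 TPM in miPS against 100.5 and 73.8 TPM in lines 11.3 and 11.5. MEF had 16 TPM and the mESC libraries 3.35 to 8.24 TPM. Smarca4 did not separate the groups, with 111 TPM in miPS against 127 and 150.0 TPM in lines 11.3 and 11.5. Of the 23 BAF subunits tested, 1 (Smarca2) fell and 1 (Smarcd1) rose, against 2.02% and 7.86% of all genes tested (median log2 fold change -0.03). Smarcd1 had 77.8 TPM in miPS against 28.7 and 32.9 TPM in lines 11.3 and 11.5. Smarcc2, a scaffold subunit, had 17.6 TPM in miPS against 40.1 and 49.3 TPM in lines 11.3 and 11.5 and missed the threshold (adjusted p = 0.0547, edgeR). Without 1 of the replicated libraries, the BAF list had 0 (without either line or either E14 library) to 3 (without either v6.5 library) higher and 1 (without either line or either E14 library) to 2 (without either v6.5 library) lower. When 1 replicated library was dropped, Smarca2 stayed past the threshold. For the others, adjusted p-values ranged up to 0.151 for Smarcd1 without E14 replicate 1.

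**Figure D4:**
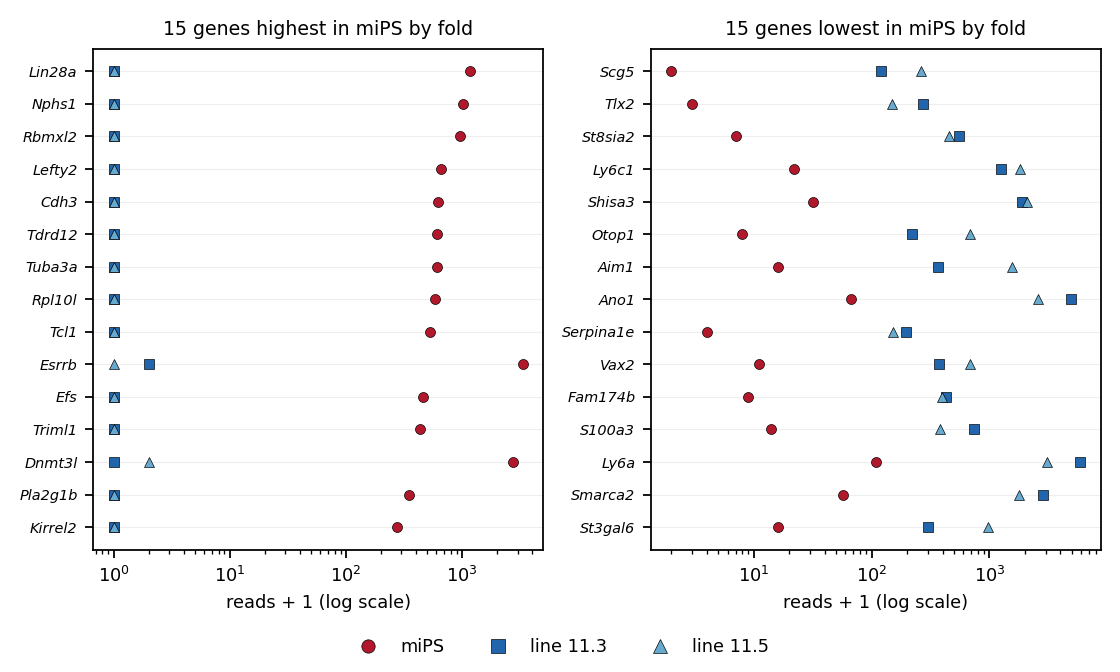
Reads plus 1 (log scale) of the 15 genes with the largest fitted rise (left) and fall (right) in miPS, among called genes with at least 10 TPM in each library of the higher group, for miPS (circles), line 11.3 (squares) and line 11.5 (triangles). On the left nearly all partial line values sit at 0 reads, whereas on the right miPS keeps between 1 (Scg5) and 107 (Ly6a) reads.

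Lineage regulators were called in both directions, against 7.86% higher and 2.02% lower over all genes tested. Of 15 mesoderm and skeletal regulators tested, 2 fell, Runx1 and Runx2, and 1 rose (median log2 fold change -0.63 as fitted and -0.52 with genes at 0 reads set to their bound (14 genes)). Runx2, the master factor of bone, had 2.95 TPM in miPS against 16.5 and 47 TPM in lines 11.3 and 11.5, and Runx1, a factor of blood formation, 3.97 TPM in miPS against 22.6 and 14.6 TPM in lines 11.3 and 11.5. Of 11 epidermal and ectodermal genes, 2 fell (5 with DESeq2, median log2 fold change -2.85), with 3.5 TPM in miPS against 63.5 and 48.3 TPM in lines 11.3 and 11.5 for the ectodermal factor Tfap2a and 8.63 TPM in miPS against 43.4 and 70.3 TPM in lines 11.3 and 11.5 for the hemidesmosome integrin Itgb4. Both were low in MEF (8.69 and 1.97 TPM). In the same list the keratin Krt17 rose, with 214 reads in miPS against 0 and 2 in lines 11.3 and 11.5. Of 11 neural genes, 2 rose (Neurod1 and Sox3) and Zic1, a factor of the dorsal neural tube, fell, with 2.13 TPM in miPS against 63.3 and 43.6 TPM in lines 11.3 and 11.5. In the endoderm and trophoblast list, 3 of 20 rose, Pdgfra, Col4a2 and Ascl2. Leaving out 1 library, the mesoderm list had 0 (without line 11.3 or either E14 library) to 3 (without either v6.5 library) higher and 0 (without line 11.5 or either E14 library) to 3 (without either v6.5 library) lower, the epidermal list had 0 (without line 11.3) to 1 (without line 11.5 or either v6.5 library or either E14 library) higher and 0 (without either E14 library) to 4 (without either v6.5 library) lower, the neural list had 0 (without either line or either E14 library) to 4 (without either v6.5 library) higher and 0 (without either line or either E14 library) to 1 (without either v6.5 library) lower and the endoderm and trophoblast list had 0 (without line 11.5 or either E14 library) to 6 (without either v6.5 library) higher. Over the leave-one-out fits, adjusted p-values ranged up to 0.0965 for Runx1, 0.0533 for Tfap2a and 0.114 for Col4a2 without E14 replicate 1, 0.0867 for Runx2 and 0.12 for Ascl2 without E14 replicate 2, 0.0873 for Itgb4 and 0.106 for Sox3 without line 11.5 and 0.0541 for Krt17, 0.107 for Neurod1, 0.113 for Zic1 and 0.0881 for Pdgfra without line 11.3.

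Hox genes, which give cells their position along the body axis, gave few calls. Of 39 genes of the 4 clusters, 25 were high enough to test, and 2 passed, against 2.02% lower over all genes tested. Of the 25, 23 had a fitted change below 0 (median log2 fold change -3.43 as fitted and -3.42 with genes at 0 reads set to their bound). The median over all genes tested was 0.03. A Hox gene with few reads in miPS could enter the test through the partial lines or MEF. The filter thus favours values below 0 here, and these signs and medians are no test. Hoxd9 had 4 reads in miPS against 89 and 47 in lines 11.3 and 11.5, and Hoxa5 3 reads in miPS, against 30 and 33 in lines 11.3 and 11.5. Hoxd13 had 23 reads in miPS against 277 and 35 in lines 11.3 and 11.5, with line 11.3 well above line 11.5, and did not pass. Hoxb2 had 1 read in miPS against 32 and 32 in lines 11.3 and 11.5 beside 15.9 TPM in MEF, and did not pass. The number of Hox genes called lower ran from 0 (without line 11.3 or either E14 library) to 11 (without either v6.5 library), so it depends on the libraries that set the spread. With any 1 of the 6 replicated libraries left out, adjusted p-values ranged up to 0.126 for Hoxd9 without E14 replicate 1 and 0.157 for Hoxa5 without E14 replicate 2.

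Metabolic lists gave between 0 and 4 higher genes each, against 7.86% of all genes tested. Of 15 genes of threonine and one-carbon metabolism, 3 rose. Tdh, the threonine dehydrogenase on which mouse stem cells depend, had 523 TPM in miPS against 54.2 and 74.2 TPM in lines 11.3 and 11.5 (log2 fold change 2.99 ± 0.44 (SE), adjusted p = 0.0141, edgeR), so it was already on in the partial lines, against 0.601 TPM in MEF. Gldc and Amt, of the glycine cleavage system, had 107 TPM in miPS against 3.16 and 0.444 TPM in lines 11.3 and 11.5 for Gldc, and 132 TPM in miPS against 2.37 and 2.12 TPM in lines 11.3 and 11.5 for Amt. These 2 enzymes were near the floor in both lines. Of 26 genes of glycolysis and hypoxia, 4 rose, led by the glucose transporter Slc2a3 (Glut3), with 605 TPM in miPS against 18.6 and 9.77 TPM in lines 11.3 and 11.5 (log2 fold change 6.01 ± 0.54 (SE), adjusted p = 0.00501, edgeR). The enzymes of the pathway itself did not pass, such as Hk2, with 103 TPM in miPS against 105 and 94.4 TPM in lines 11.3 and 11.5, and Ldha, with 1505 TPM in miPS against 1945 and 1685 TPM in lines 11.3 and 11.5. Of 26 genes of oxidative phosphorylation, edgeR and DESeq2 each called 0. An unadjusted p under 0.05 (edgeR) was found for 2 of the 26, against 4314 of all 16773 genes tested. Without a v6.5 library 2 of the oxidative phosphorylation genes were called higher, and without line 11.3 1 was. Among amino acid transport and stress genes, 2 of 18 rose (Asns and Aars) and Cth, which makes cysteine, fell, with 46.3 TPM in miPS against 191 and 164 TPM in lines 11.3 and 11.5. With 1 library removed, the threonine list had 1 (without either E14 library) to 3 (without either v6.5 library) higher and 0 (without either line or either E14 library) to 1 (without either v6.5 library) lower, the glycolysis list had 1 (without line 11.3 or either E14 library) to 7 (without either v6.5 library) higher and the amino acid list had 0 (without either line or either E14 library) to 4 (without either v6.5 library) higher and 0 (without either line or either E14 library) to 1 (without either v6.5 library) lower. In each fit without 1 replicated library, Amt and Slc2a3 stayed past the threshold. Adjusted p-values of the rest ranged up to 0.0727 for Tdh and 0.141 for Asns without line 11.3 and 0.0632 for Gldc, 0.135 for Aars and 0.099 for Cth without E14 replicate 1.

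Cell cycle genes gave few calls, beside 7.86% higher and 2.02% lower over all genes tested. Of 30 proliferation genes 1 rose, Mybl2, a factor of cycling stem cells, with 572 TPM in miPS against 90.6 and 97.1 TPM in lines 11.3 and 11.5 (log2 fold change 2.61 ± 0.34 (SE), adjusted p = 0.00997, edgeR). The replication clamp Pcna had 407 TPM in miPS against 439 and 421 TPM in lines 11.3 and 11.5 and Mki67, the proliferation antigen, 41.2 TPM in miPS against 81.4 and 114 TPM in lines 11.3 and 11.5, and neither passed. The list had a median log2 fold change of 0.04. Of 24 G1 cyclins, Cdk inhibitors and p53 targets, 1 rose, Gadd45a, with 146 TPM in miPS against 22.4 and 9.72 TPM in lines 11.3 and 11.5. Ccnd1 (cyclin D1) had 147 TPM in miPS against 429 and 437 TPM in lines 11.3 and 11.5, below both lines in miPS, and missed the threshold (adjusted p = 0.0619, edgeR). In the leave-one-out fits, the proliferation list had 0 (without either line) to 4 (without either v6.5 library) higher and 0 (without either line or either E14 library) to 4 (without either v6.5 library) lower and the G1 and p53 list had 0 (without either line or either E14 library) to 6 (without either v6.5 library) higher and 0 (without either line or either E14 library) to 3 (without either v6.5 library) lower. Across the 6 fits without 1 library, adjusted p-values ranged up to 0.0564 for Mybl2 and 0.141 for Gadd45a without line 11.5.

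Chromatin repressors mostly did not pass, as was so for all genes tested, of which 7.86% were called higher and 2.02% lower. Of 26 Polycomb genes, 1 rose, Cbx7, the main chromobox subunit of stem cells, with 101 TPM in miPS against 9.61 and 6.44 TPM in lines 11.3 and 11.5 (log2 fold change 3.48 ± 0.45 (SE), adjusted p = 0.01, edgeR). Ezh2, the histone methyltransferase, had 101 TPM in miPS against 71.6 and 88.5 TPM in lines 11.3 and 11.5. Of 16 genes linked to the silencing of retroviruses, 1 rose, Dnmt3l, given above. Trim28 (Kap1), the corepressor of the zinc finger proteins that silence proviruses, had 1063 TPM in miPS against 398 and 375 TPM in lines 11.3 and 11.5 (adjusted p = 0.0728, edgeR) and Setdb1, its histone methyltransferase, 47.4 TPM in miPS against 40.1 and 46.8 TPM in lines 11.3 and 11.5. With a v6.5 library left out, 3 of the retroviral silencing genes were called higher and 1 lower, and of the Polycomb genes 5 were called higher and 4 (without replicate 1) or 5 (without replicate 2) lower. DESeq2 called 4 Polycomb genes higher and 3 lower. When 1 replicated library was dropped, Cbx7 stayed past the threshold.

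The share of signalling genes that rose varied by pathway, against 7.86% of all genes tested. For TGF-beta and BMP, 10 of 24 rose and 1, Tgfbr2, fell (median log2 fold change 0.91 as fitted and 0.93 with genes at 0 reads set to their bound (23 genes)). Beside Nodal, Lefty1 and Lefty2, Bmp4, a ligand that supports self-renewal, had 269 reads in miPS against 18 and 9 in lines 11.3 and 11.5, and the inhibitory Smad7 671 reads in miPS, against 73 and 53 in lines 11.3 and 11.5. Of the higher genes 4 were at least 10 times higher in MEF than in miPS, among them Inhba, with 56 reads in miPS against 3 and 0 in lines 11.3 and 11.5. For Wnt, 7 of 28 rose and 1, the secreted inhibitor Wif1, fell (median log2 fold change 2.59 as fitted and 1.59 with genes at 0 reads set to their bound). The pathway target Axin2 had 142 reads in miPS against 0 and 1 in lines 11.3 and 11.5, and Tcf7, a transcription factor of the pathway, 378 reads in miPS, against 27 and 13 in lines 11.3 and 11.5. Target and factor were thus low in both lines. The number of Wnt genes called higher ran from 3 (without either E14 library) to 15 (without v6.5 replicate 1). Of 20 FGF and MAPK genes, 4 rose, Fgf4, Fgf10, Fgfr2 and Egr1. Etv5, a target of the pathway, had 211 TPM in miPS against 150.2 and 196 TPM in lines 11.3 and 11.5 and did not pass. Of 12 LIF and Stat3 genes, 1 rose, a share near that of all genes tested. This was the kinase Pim1, with 109 TPM in miPS against 29.9 and 35.6 TPM in lines 11.3 and 11.5, and the receptor Lifr had 16 TPM in miPS against 39.3 and 25.5 TPM in lines 11.3 and 11.5. Without 1 of the replicated libraries, the TGF-beta and BMP list had 4 (without line 11.5 or either E14 library) to 11 (without either v6.5 library) higher and 0 (without either E14 library) to 3 (without line 11.3) lower, the FGF list had 1 (without either E14 library) to 6 (without either v6.5 library) higher and 0 (without either line or either E14 library) to 1 (without either v6.5 library) lower and the LIF list had 0 (without either line or either E14 library) to 2 (without either v6.5 library) higher. Over the leave-one-out fits, Bmp4, Smad7, Axin2, Tcf7 and Fgfr2 stayed past the threshold. The other adjusted p-values ranged up to 0.0622 for Inhba, 0.133 for Wif1 and 0.107 for Fgf10 without E14 replicate 2 and 0.176 for Pim1 without line 11.3.

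Interferon-response genes rose in 7 of 26 cases, against 7.86% of all genes tested (median log2 fold change 1.34). Isg15, a ubiquitin-like modifier, had 103 reads in miPS against 2 and 5 in lines 11.3 and 11.5, Oasl2 59 reads in miPS, against 0 and 0 in lines 11.3 and 11.5, and Irf7, a factor of the response, 106 reads in miPS, against 11 and 9 in lines 11.3 and 11.5. The antigen presentation gene B2m had 44.3 TPM in miPS against 60.5 and 84.5 TPM in lines 11.3 and 11.5 and did not pass. Of 12 markers of immune and endothelial cells, 2 were called, Csf1r at 8 reads in miPS, against 0 and 0 in lines 11.3 and 11.5 and Vwf at 163 reads in miPS, against 1 and 0 in lines 11.3 and 11.5. Ptprc (CD45), the marker of all white blood cells, had 2 reads in miPS, against 0 and 2 in lines 11.3 and 11.5. Cdh5 (VE-cadherin) was higher in the partial lines, with 3 reads in miPS against 58 and 331 in lines 11.3 and 11.5, and did not pass. The number of interferon genes called higher ran from 1 (without either E14 library) to 11 (without either v6.5 library). Leaving out 1 library, the immune and endothelial list had 1 (without either line or either E14 library) to 5 (without either v6.5 library) higher and 0 (without line 11.5 or either E14 library) to 2 (without either v6.5 library) lower. With any 1 of the 6 replicated libraries left out, Oasl2 and Vwf stayed past the threshold. Adjusted p-values of the rest ranged up to 0.0741 for Isg15 without line 11.3, 0.11 for Irf7 without line 11.5 and 0.122 for Csf1r without E14 replicate 1.

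**Figure D5:**
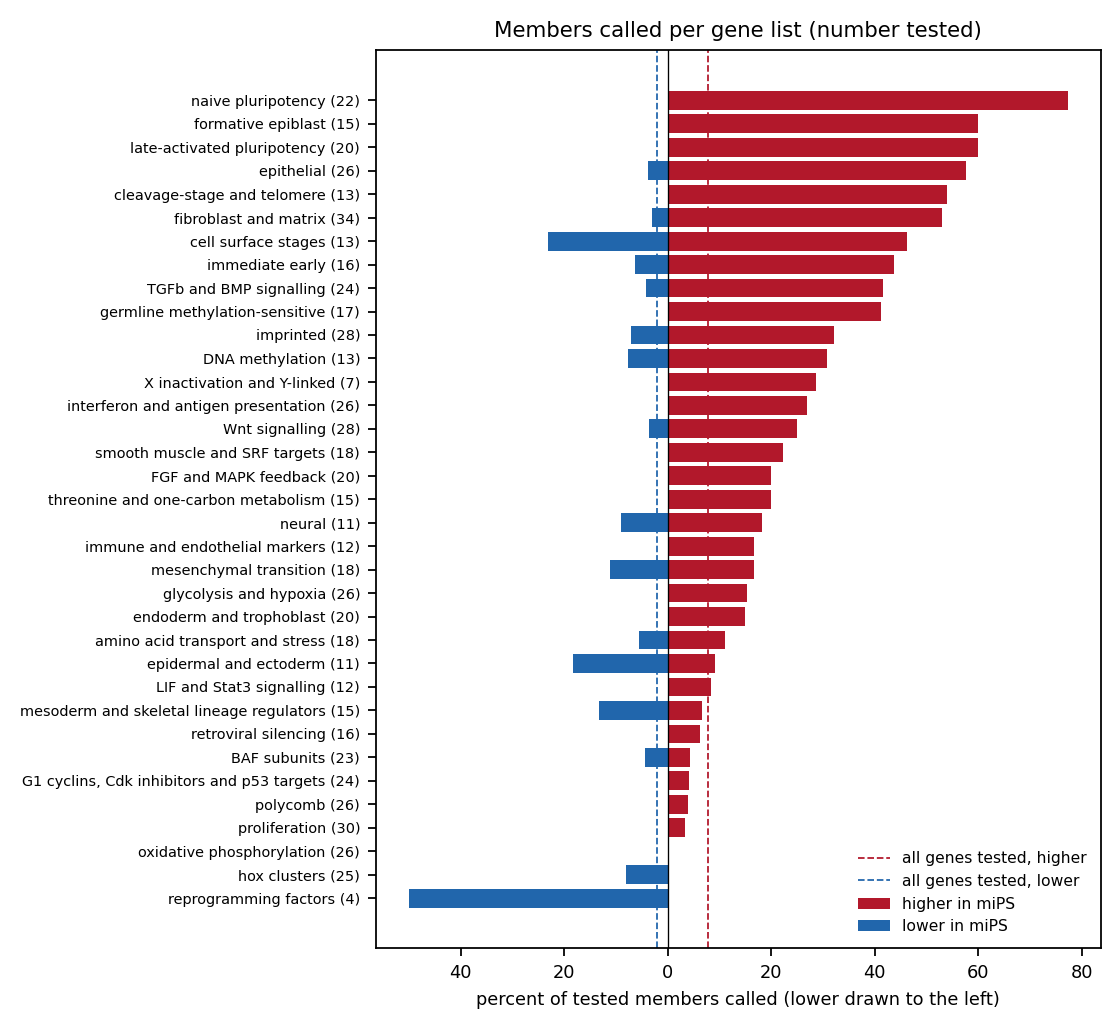
For each of 35 gene lists (number of genes tested in brackets), the percentage of tested members called higher in miPS (red, to the right) and lower (blue, to the left), with dashed lines at the shares over all genes tested (7.86% and 2.02%). The naive pluripotency list stands highest, at 17 of 22, and the reprogramming factors lowest, at 0 higher and 2 of 4 lower.

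Lines 11.3 and 11.5 were not alike in every list. Myocd (myocardin), a coactivator of smooth and heart muscle genes, had 0 reads in miPS against 16 and 376 in lines 11.3 and 11.5. Actg2, a smooth muscle actin, had 17 reads in miPS against 73 and 2085 in lines 11.3 and 11.5, and Grem1, a BMP inhibitor, 45 reads in miPS, against 50 and 1161 in lines 11.3 and 11.5. Prrx1, a factor of limb mesenchyme, had 84 reads in miPS against 17 and 439 in lines 11.3 and 11.5. In all 4 genes line 11.5 was well above line 11.3, and none passed. Tfap2c and Lama1 were higher in line 11.3, with 945 reads in miPS against 270 and 34 in lines 11.3 and 11.5 for Tfap2c, and 1506 reads in miPS against 2386 and 422 in lines 11.3 and 11.5 for Lama1. With 1 library per line, these differences have no replicate.

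The remaining genes with the largest rise in miPS were of several kinds. Nphs1 (nephrin) and its neighbour Kirrel2, adhesion proteins of the kidney filter, had 1021 reads in miPS against 0 and 0 in lines 11.3 and 11.5 for Nphs1 (at least 337-fold), and 274 reads in miPS against 0 and 0 in lines 11.3 and 11.5 for Kirrel2 (at least 90.5-fold). Rbmxl2, a testis RNA-binding protein, had 953 reads in miPS against 0 and 0 in lines 11.3 and 11.5, and Tdrd12, of the piRNA pathway, 611 reads in miPS, against 0 and 0 in lines 11.3 and 11.5. Triml1, a tripartite motif protein of the early embryo, had 432 reads in miPS against 0 and 0 in lines 11.3 and 11.5. These 5 genes had at most 1 read in MEF. Efs, an adaptor of Src kinases, had 459 reads in miPS against 0 and 0 in lines 11.3 and 11.5, and 132 in MEF, and Pla2g1b, a secreted phospholipase, had 351 reads in miPS against 0 and 0 in lines 11.3 and 11.5. In each fit without 1 replicated library, Nphs1, Kirrel2, Rbmxl2, Tdrd12, Triml1, Efs and Pla2g1b stayed past the threshold.

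The table also held 283 unannotated noncoding loci, of which 12 were high enough to test in this comparison. Among them 0 were called by edgeR and 0 by DESeq2. Of the 12, 3 had an unadjusted p under 0.05 (edgeR), against 4314 of all 16773 genes tested.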

How the data were processed

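Expected counts per gene and TPM values were used as the authors deposited them in 1 table. The submitters' processing notes name TopHat 1.3, RSEM and the build mm9, without the role of each. The unit of each column was taken from the file headers and from the values, which are counts that need not be whole and levels scaled to the same total. Polyadenylated RNA from 8 discovery libraries was sequenced on an Illumina GAII or GAIIx, per the labels' protocols. The table listed 42458 entries, of which 343 without values were left out, and 16 columns of bounds were not used.

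Counts were rounded to whole numbers and fitted with edgeR 4.0.16 (R 4.3.3, TMM scaling, quasi-likelihood test, Benjamini-Hochberg adjustment over the 16773 genes that reached 1 CPM in 2 or more libraries). All 8 libraries in 5 groups entered the fit, which left 3 residual degrees of freedom, and the contrast was miPS minus the mean of lines 11.3 and 11.5. Adjusted p-values in the text come from this fit. The script was tested on simulated data, where 0% of 100 genes with a true 2-fold change were called. Of 100 genes with a true 8-fold change, 56% were called. Alternatives were DESeq2 1.42.0, limma 3.58.1 on log2(TPM + 1) and log2(TPM + 0.1), other scalings, filters and groupings, and each replicated library left out. Depth ran from 7536503 to 23662593 reads per library, and a floor of 3 reads was used for genes at 0. Intervals and floors cover counting error only. Sequences are from RefSeq tables of GRCm38.p6, and no coordinates were converted between builds.

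The lists and genes were chosen with earlier results of these data known. Named genes are examples of each list by level or role, and the 15 genes with the largest fitted change in each direction among called genes with at least 10 TPM in every library of the higher group and a regular symbol. Some members of the lists are counted but not reported here by name.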

Additional observations from a re-analysis of the deposited data

How the results depend on the processing

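The number of genes called (1657, with 1319 higher and 338 lower in miPS) moved most with the libraries that set the spread. Leaving out 1 replicated library gave 405 to 3722 calls, 378 to 2449 higher and 27 to 1273 lower. Fitting only the 3 libraries compared gave 499 calls (368 higher, 131 lower). With E14 and v6.5 as 1 group there were 1047 calls (878 higher, 169 lower). Without a filter on low counts 29008 entries were tested and 2708 called (2036 higher, 672 lower). DESeq2 called 2560 (1713 higher, 847 lower). The other alternatives stayed within 1.5 times of the main counts, from 1367 to 1751 calls. Of these, the fit on Ensembl genes alone (1652 calls) was chosen after seeing the data. Upper-quartile scaling moved the median log2 fold change of all genes tested to 0.14, against 0.03.

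None of the named genes that passed the test changed direction under these alternatives, but of 121, 50 to 51 lost the call without an E14 library, 38 to 41 without a line, 41 with the 3 libraries alone and 0 with DESeq2. Among those that did not pass, the log2 fold change changed sign when a line was left out for Col5a2 (0.86 without line 11.3, -1.63 without line 11.5), Etv5 (-0.00033 without line 11.3, 0.28 without line 11.5), Fbln2 (2.84 without line 11.3, -0.14 without line 11.5), Fbxo15 (-0.060 without line 11.3, 0.65 without line 11.5), Hk2 (0.14 without line 11.3, -0.13 without line 11.5), Krt19 (-1.87 without line 11.3, 1.07 without line 11.5), Lama1 (1.80 without line 11.3, -0.81 without line 11.5), Prrx1 (-2.42 without line 11.3, 2.15 without line 11.5), Sox2 (1.16 without line 11.3, -1.51 without line 11.5) and Zic2 (0.67 without line 11.3, -0.23 without line 11.5). The value of Lama1, near 0, also changed sign, to 0.014 (RLE scaling), 0.11 (upper-quartile scaling), 0.032 (no filter on low counts), 0.020 (at least 5 CPM in at least 2 libraries), 0.014 (DESeq2), 0.46 (limma on log2(TPM + 1)), 0.51 (limma on log2(TPM + 0.1)), and that of Pcna to 0.016 with upper-quartile scaling. No paired analysis was possible because the miPS state has 1 library, so the states compared do not share replicate numbers. Apart from the movements of counts given above, the cause was not tested. With 1 library per line, nothing separates the state of reprogramming from the single clone.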
